A study of Mus musculus with 6 samples.

Results

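The 10 genes described here encode RNA-binding proteins that set splicing and transcript stability as neurons form: Ptbp1, Ptbp2, Nova1, Khdrbs1, Khdrbs2, Khdrbs3, Srrm4, Elavl2, Elavl3 and Elavl4. They were taken by symbol, and all 10 were found among the 20367 genes of the joined tables. The data are 6 RNA sequencing libraries of cells sorted from the cortex of C57BL/6J mouse embryos, 3 of IPN (neurons derived from intermediate progenitors) and 3 of non-IPN. Embryos came from heterozygous Tbr2(Eomes)-GFP mice crossed to homozygous DCX-mRFP mice, and per the labels the cortices of embryos positive for both transgenes were used for both populations. IPN were sorted as cells with both colors and non-IPN as cells with red fluorescence alone, so a cell that had lost, or not yet gained, the green signal would fall in the non-IPN gate. There was 1 library of each population per embryonic day, with E13.5 the earliest, E15.5 next and E16.5 the last. The E15.5 libraries came from 1000000 cells and were not amplified. The other 4 came from 10000 cells each, and their transcriptomes were amplified, so that age, cell number and amplification cannot be told apart at E15.5. How many embryos went into a library is not stated in the labels.

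Neural progenitors express PTBP1, a repressor of neuronal exons, and lose it as they become neurons, when its paralog PTBP2 takes its place. SRRM4 (nSR100) then promotes the inclusion of neuronal microexons, NOVA1 and the KHDRBS (STAR) proteins select alternative exons, and the ELAVL2, ELAVL3 and ELAVL4 (Hu) proteins stabilize and splice neuronal transcripts. The last of these are widely used as markers of postmitotic neurons. The libraries give gene totals, so the exons that these proteins act on were not read here.

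PTBP1 is known to act on its paralog through 1 short exon. When PTBP1 causes that exon to be skipped, the Ptbp2 reading frame shifts and the transcript is degraded. The exon and its counterpart in Ptbp1, which PTBP1 controls in the same way, are shown because they link the first pair of genes below. Capitals mark the bases that differ.

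Ptbp2 exon 10, chr3:119724612-119724645, minus strand: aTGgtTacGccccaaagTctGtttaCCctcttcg

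Ptbp1 exon 9, chr10:79862014-79862047, plus strand: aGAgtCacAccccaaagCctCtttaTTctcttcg

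Each exon has 34 bases, which is not a multiple of 3, and 26 of the 34 bases are identical. They were read from GENCODE M21 transcripts on GRCm38, a later build than the mm9 of the deposited data, and exon numbers are those of the longest coding transcript. Of the annotated transcripts that span the site and skip the exon, 2 of 3 for Ptbp2 and 2 of 2 for Ptbp1 are classed as targets of nonsense-mediated decay, against 0 of those that hold it (0 of 3 and 0 of 4).

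The sorted populations were checked against markers, and libraries that stand apart are given here because they touch the results below. Levels are in CPM, the deposited value per 1000000 of the library's column total, and 3 values given by age belong to E13.5, E15.5 and E16.5 in that order. All 5 young neuron markers were above 0 in all 6 libraries, among them Dcx, the gene of the red reporter used in the sort. Of the 20373 rows, 15454 to 17199 were above 0 in each library, so this count does not identify a cell type. Summed markers of GABAergic interneurons were 17.5 to 57.6 CPM in IPN and 1072.8 to 4164.7 in non-IPN, with 7 of 7 called lower in IPN, while 5 of 6 markers of glutamatergic projection neurons were called higher. With a pair left out, 7, 6 and 7 of the 7 GABAergic markers were called without E13.5, E15.5 and E16.5 in turn. In the same settings 2, 1 and 6 of the 6 glutamatergic markers were called, with all 6 fitted values above 0 each time. At E16.5 alone, Slc17a7 of that list was at -0.13 (log2 IPN minus non-IPN). The 4 intermediate progenitor markers separated the populations far less. They summed to 1596.6, 377.2 and 827.0 CPM in IPN by age, against 1687.1, 208.6 and 583.0 CPM in non-IPN. Insm1 was the 1 of the 4 called higher in IPN, and 0 were called lower. Eomes, the gene of the green reporter, was not called (0.79 ± 0.22, limma, adjusted p = 0.101). With the E15.5 or the E16.5 pair left out 0 of the 4 were called. Non-IPN also held markers of cells that are not neurons. The 10 microglia and macrophage markers summed to 1.4 to 5.2 CPM in IPN and 465.4 to 917.8 in non-IPN, and 5 of the 10 were at 0 in IPN at E16.5. The 9 radial glia markers summed to 1247.2, 377.2 and 549.1 CPM in the IPN libraries by age, against 4318.1, 632.6 and 1064.7 CPM in the non-IPN libraries. The 10 cycling cell markers summed to 1149.5, 230.6 and 453.2 CPM in IPN, youngest first, and to 3696.2, 464.6 and 579.9 CPM in non-IPN. At E13.5 red blood cell markers summed to 6.1 CPM in IPN, against 49254.3 CPM in non-IPN, which sets that non-IPN library apart from the other 5 (12.9 to 276.5 CPM in the 4 later ones). In such bulk samples fewer cells of a type and less RNA per cell cannot be told apart.

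**Figure D1:**
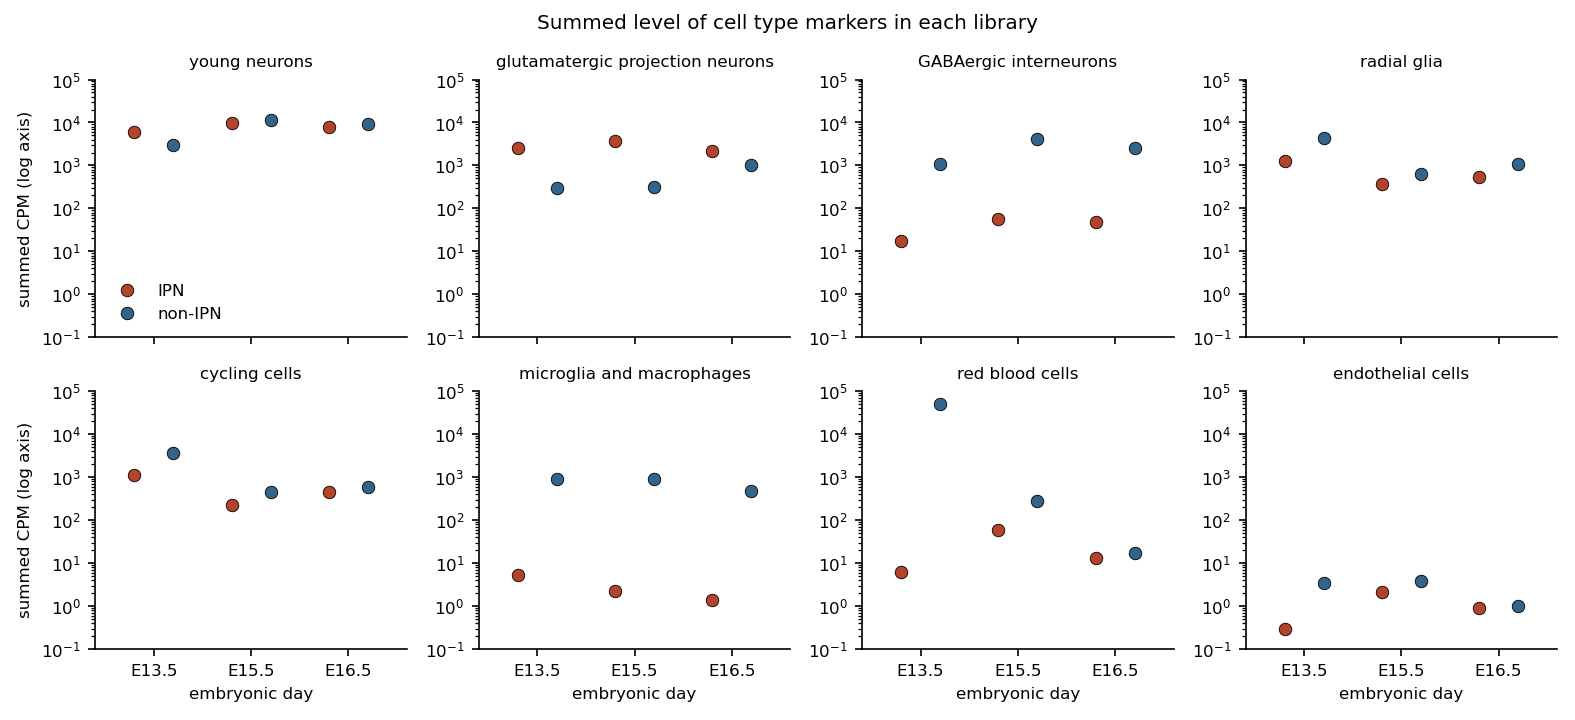
Summed level in CPM (log axis) of 8 marker lists against embryonic day, with 1 point per library, IPN red and non-IPN blue. Microglia markers stay at or below 5.2 CPM in all 3 IPN libraries and reach 465.4 or more in all 3 non-IPN libraries, and red blood cell markers reach 49254.3 CPM in non-IPN at E13.5.

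The first comparison asked which of the 10 genes differed between IPN and non-IPN. Khdrbs3 was the 1 gene of 10 called higher in IPN (limma on log2(deposited value + 1), embryonic day as the pairing, adjusted p under 0.05 over 19561 genes), and 0 of 10 were called lower. Over all genes tested, 0.982% were called higher and 2.41% lower. The median log2 fold change of the 10 was 0.41, against -0.02 over all genes tested. The median of the 10 was 0.04 without the E13.5 pair, 0.74 without E15.5 and 0.57 without E16.5. The days are the only replicates of the difference, with 2 residual degrees of freedom, and errors below are standard errors (SE) of the fitted log2 fold change. Log2 differences use the deposited scale, where column totals differ between populations, so they need not equal the ratio of the CPM levels.

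Among the polypyrimidine tract proteins, neither gene was called between populations. Ptbp1, the progenitor and non-neuronal form, was at 4.07, 79.87 and 11.63 CPM across the 3 IPN ages, against 17.66, 93.55 and 29.64 CPM across those of non-IPN. It was lower in IPN than in non-IPN of the same day on all 3 days, but the populations overlap across days. The fitted difference was -1.09 ± 0.38 and was not called (limma, adjusted p = 0.212), with log2 differences of -1.95, -0.17 and -1.13 from E13.5 to E16.5. The sums of radial glia, cycling cell and microglia markers given above were also lower in IPN on each of these days, and their part in the Ptbp1 values was not tested.

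Ptbp2, the neuronal form, was at 1236.97, 375.86 and 967.58 CPM in the IPN libraries by age, against 1000.70, 426.22 and 878.20 CPM in the non-IPN libraries. The day separated these values and the population did not. Its fitted difference was 0.23 ± 0.20 (adjusted p = 0.695). Per kilobase of the longest coding transcript, Ptbp2 stood above Ptbp1 in all 6 libraries (327.5 and 1.3 CPM per kb in IPN at E13.5, and 112.8 and 29.5 in non-IPN at E15.5).

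In the ratio of Ptbp2 to Ptbp1 within a library, gene length cancels between libraries if it acts alike in them. Whether it does so between the amplified libraries and the E15.5 pair was not tested. On the log2 scale the ratio was 8.25, 2.23 and 6.38 in IPN by age and 5.82, 2.19 and 4.89 in non-IPN. It was higher in IPN at E13.5 and E16.5, while at E15.5 the populations differed by far less than the amplified pairs did. The deposited value of Ptbp1 behind the highest ratio was 63, so that ratio rests on a low value. No test was made of this ratio.

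**Figure D2:**
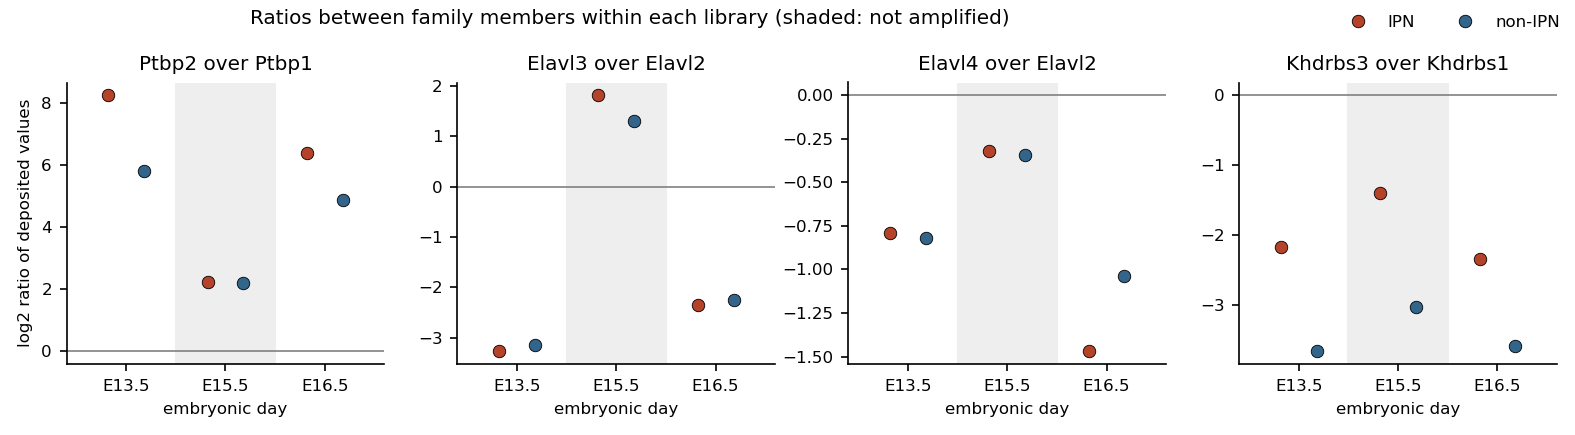
Log2 ratio of the deposited values of 2 genes of a family within each library against embryonic day, with IPN red, non-IPN blue and the E15.5 pair, which was not amplified, shaded. The Ptbp2 to Ptbp1 ratio on the first day is 8.25 in IPN, against 5.82 in non-IPN, the Elavl3 to Elavl2 ratio is above 0 only in the 2 E15.5 libraries, and the Khdrbs3 to Khdrbs1 ratio is higher in IPN on each day.

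The 3 Khdrbs genes behaved differently from each other. Khdrbs3 (SLM2), which selects neurexin exons in mouse forebrain neurons, was at 128.03, 167.15 and 128.51 CPM in IPN, youngest first, and at 50.55, 62.24 and 62.14 CPM in non-IPN. All 3 IPN libraries lay above all 3 non-IPN libraries. The fitted log2 fold change was 1.41 ± 0.22 (limma, adjusted p = 0.0056), with 1.49, 1.48 and 1.26 on the 3 days. It was the 1 member past 2-fold in the same direction on every day, as were 1.38% (higher in IPN) and 2.81% (lower) of the 9349 genes with a mean of at least 10 CPM. Without the E15.5 pair its log2 fold change was 1.37 and was no longer called (adjusted p = 0.184), a setting that left 54 called genes of 19309 tested. It was not called without embryonic day as the pairing either (adjusted p = 1), a fit that called 0 genes. Glutamatergic and GABAergic markers separated the populations on the same days, and their part in this difference was not tested.

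Khdrbs1 (SAM68), the broadly expressed member of the family, was at 581.29, 441.75 and 649.34 CPM across the 3 IPN ages, against 643.14, 507.78 and 749.07 CPM across those of non-IPN. The populations overlapped, with IPN at 0.90, 0.87 and 0.87 times the CPM of non-IPN by age, and the fitted difference on the deposited scale was -0.05 ± 0.18 (adjusted p = 0.935). Relative to Khdrbs1, the log2 level of Khdrbs3 was -2.18, -1.40 and -2.34 in IPN by age and -3.67, -3.03 and -3.59 in non-IPN.

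Khdrbs2 (SLM1), the other neuronal paralog, was at 6.66, 41.27 and 14.57 CPM in IPN by age, while non-IPN had it listed at 0 on the first day and at 22.41 and 13.91 CPM later. It was higher in IPN on each day, with overlap across days. The fitted difference of 2.64 ± 1.10 was not called (adjusted p = 0.34), and its size depends on the pseudocount because of the 0. Per kilobase, the order in all 6 libraries was Khdrbs1, Khdrbs3, Khdrbs2, for example 118.2, 88.6 and 7.8 CPM per kb in IPN at E15.5.

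Nova1 encodes a splicing factor known from inhibitory synapses, whose binding map in mouse brain is a standard example of position-dependent splicing. It was at 24.82, 14.81 and 10.53 CPM in the IPN libraries by age, against 32.46, 58.51 and 42.36 CPM in the non-IPN libraries. All 3 IPN libraries were below all 3 non-IPN libraries, narrowly at E13.5 and by about the same amount at the later ages. The fitted difference was -1.32 ± 0.38 and was not called (limma, adjusted p = 0.112), with log2 differences of -0.24, -1.93 and -1.78. Without the E13.5 pair it was -1.86 and was called (adjusted p = 0.0237). The GABAergic marker sum was higher in non-IPN on all 3 days, and its part in the Nova1 values was not tested.

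Srrm4 and the 3 neuronal Elavl genes shared a pattern in which IPN exceeded non-IPN at E13.5 and differed little later. Srrm4 was at 189.82, 416.58 and 241.16 CPM in IPN, youngest first, and at 65.14, 318.74 and 260.66 CPM in non-IPN. Non-IPN at E13.5 was the low library, and the other 5 lay between 189.82 and 416.58. The log2 differences were 1.69, 0.44 and 0.10, and the fitted difference was 0.74 ± 0.29 (limma, adjusted p = 0.278).

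Elavl2 (HuB) was at 1739.47, 263.71 and 1125.10 CPM across the 3 IPN ages, against 691.68, 351.67 and 1054.06 CPM across those of non-IPN. Elavl3 (HuC) was at 179.93, 927.23 and 220.23 CPM in the IPN libraries by age, against 78.22, 864.74 and 219.41 CPM in the non-IPN libraries. Elavl4 (HuD) was at 1003.07, 210.67 and 407.22 CPM in IPN, youngest first, and at 390.74, 277.29 and 511.46 CPM in non-IPN. At E13.5 all 3 were higher in IPN by 2.51, 2.30 and 2.57 times in CPM. At E16.5 the same ratios were 1.07, 1.0 and 0.80. The fitted differences over all days were 0.47 ± 0.30, 0.57 ± 0.26 and 0.35 ± 0.32, and 0 of 3 were called (adjusted p = 0.559, 0.361 and 0.715). Without the E13.5 pair those of Elavl2 and Elavl4 turned to -0.03 and -0.23.

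A log2 difference of at least 1 in favor of IPN was reached by 6 of the 10 genes at E13.5 (Khdrbs2, Khdrbs3, Srrm4, Elavl2, Elavl3 and Elavl4), against 14.8% of the 9349 genes with a mean of at least 10 CPM. At E15.5 and at E16.5 it was reached by Khdrbs3 alone, against 5.38% and 6.45%. In favor of non-IPN it was reached by Ptbp1 at E13.5 (11.8% of genes), Nova1 at E15.5 (6.18%) and both at E16.5 (7.69%). These shares describe single pairs of libraries with no replicate. The E13.5 non-IPN library was also the one with the highest radial glia, cycling cell and red blood cell sums, and young neuron markers summed to 5847.9, 9970.1 and 7878.0 CPM in IPN by age, against 3012.0, 11370.1 and 9101.1 CPM in non-IPN. The part of these cells in the E13.5 differences was not tested.

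**Figure D3:**
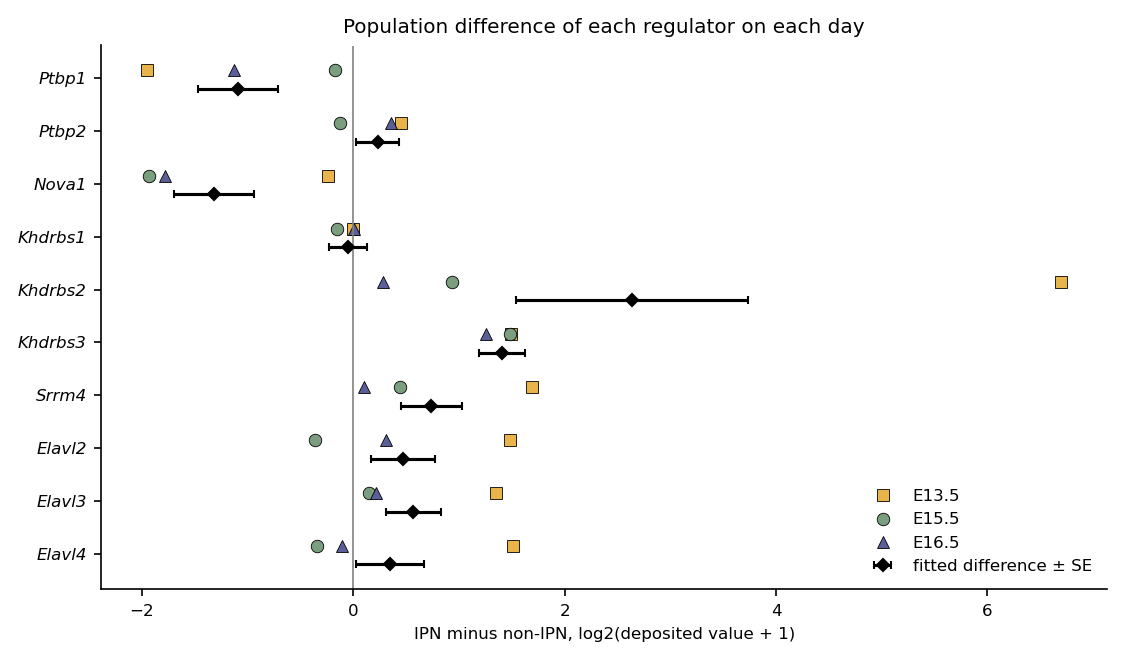
IPN minus non-IPN difference on the log2(deposited value + 1) scale for each of the 10 genes, with 1 colored marker per embryonic day and the fitted difference with its SE as a black diamond. Khdrbs3 lies between 1.26 and 1.49 on all 3 days, the E13.5 squares of Srrm4 and the 3 Elavl genes lie between 1.35 and 1.69, and the E13.5 square of Khdrbs2 rests on a value listed at 0.

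Whether the population difference changed with age was asked with a population by day term (log2 per day, 1 residual degree of freedom). With 1 pair of libraries per day, its p-values measure only how far the daily differences depart from a straight line. No day had a replicate pair. The E15.5 pair was not amplified, so age and amplification cannot be told apart in the term. The term was called for Khdrbs2 alone among the 10 (-2.25 ± 0.37, limma, adjusted p = 0.0107), and 0.680% of all genes were called in that direction and 0.624% in the other. That call rests on the value listed at 0 in non-IPN at E13.5, and it was lost with a pseudocount of 10 (-1.11, adjusted p = 0.167). The terms of Srrm4 (-0.54 ± 0.16, adjusted p = 0.097), Elavl4 (-0.59 ± 0.17, adjusted p = 0.0987), Elavl2 (-0.46 ± 0.19, adjusted p = 0.244) and Elavl3 (-0.41 ± 0.16, adjusted p = 0.212) were negative and not called. With values scaled to column totals these 4 passed (adjusted p = 0.00271, 0.000339, 0.00611 and 0.0293), in a setting that called 1445 genes in place of 255.

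Promoters are shown for Srrm4 and Elavl4, the genes of the group higher in IPN at E13.5 that have a window with the E-box CAGATG. NeuroD transcription factors bind this E-box, and their genes Neurod1 (2.86 ± 0.25), Neurod2 (2.69 ± 0.46) and Neurod6 (2.93 ± 0.35) were called higher in IPN (limma, adjusted p = 0.000222, 0.017 and 0.00173). When the E15.5 libraries were left out Neurod2 (2.15) and Neurod6 (2.49) were not called (adjusted p = 0.21 and 0.0729), and with the E13.5 libraries left out Neurod2 (2.37, adjusted p = 0.0905) was not. By age the log2 differences were 3.18, 2.74 and 2.67 for Neurod1, 3.31, 3.75 and 0.99 for Neurod2, and 3.35, 3.79 and 1.64 for Neurod6. Those of Srrm4 were 1.69, 0.44 and 0.10, and those of Elavl4 were 1.51, -0.34 and -0.11, so the day patterns differed. A link between these genes was not tested. The NeuroD genes come from the marker lists and were picked after their values were seen. Each window has 300 bases, most of them upstream of an annotated start, from RefSeq on GRCm38.p6. Capitals mark CAGATG, searched on both strands.

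Srrm4, chr5:116591768-116592067, minus strand: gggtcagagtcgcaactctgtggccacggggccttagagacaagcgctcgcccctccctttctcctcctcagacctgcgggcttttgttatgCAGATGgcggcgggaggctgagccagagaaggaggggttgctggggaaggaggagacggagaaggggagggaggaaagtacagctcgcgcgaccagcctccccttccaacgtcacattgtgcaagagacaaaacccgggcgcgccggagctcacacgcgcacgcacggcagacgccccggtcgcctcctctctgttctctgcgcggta

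Elavl4, chr4:110287478-110287777, minus strand: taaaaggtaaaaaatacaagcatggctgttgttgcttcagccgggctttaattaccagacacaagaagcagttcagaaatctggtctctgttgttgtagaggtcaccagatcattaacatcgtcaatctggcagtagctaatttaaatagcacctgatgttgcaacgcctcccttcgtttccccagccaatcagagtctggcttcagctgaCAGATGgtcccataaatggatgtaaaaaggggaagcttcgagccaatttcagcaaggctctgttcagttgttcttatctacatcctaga

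RefSeq windows were matched for 8 of the 10 genes, and 3 of the 8 (Srrm4, Elavl4 and Ptbp1) held the motif in at least 1 window, against 19.2% of all 27025 genes in the table. By window it was 5 of 16, some of which overlap, against 17.2% of all 32851 windows. The 6 windows of Elavl2 and the 1 each of Elavl3 and Khdrbs2 did not hold these letters, although these genes were also higher in IPN at E13.5. Ptbp1, which holds them, was lower in IPN. Of the 4 Elavl4 windows 3 hold it, and the most upstream of those 3 is shown. A match describes the sequence and is not a measured binding site.

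The second comparison set E16.5 against E13.5, both amplified from the same number of cells, with 1 library per population and age. Both libraries of an age came from the same dissociated cortices, so age itself had no independent replicate. The p-values between ages therefore measure only the spread left between populations across days. Of the 10 genes, 0 were called in either direction (limma), and 3 were at an unadjusted p under 0.05, against 4217 of all 19561 genes. Over all genes 6.02% were called, 3.76% higher and 2.26% lower at E16.5. The median log2 fold change of the 10 was 0.05, against 0.00 over all genes. Srrm4 had a fitted change of 1.06 ± 0.35 (adjusted p = 0.112), made of 0.26 in IPN and 1.85 in non-IPN. Elavl3 had 0.77 ± 0.31 (adjusted p = 0.186), made of 0.21 in IPN and 1.33 in non-IPN. The other Hu genes had opposite signs in the populations. Elavl4 had -1.38 in IPN and 0.24 in non-IPN, and Elavl2 had -0.71 and 0.46.

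Ptbp1 stood higher at E16.5 than at E13.5 in each population, by 1.42 in IPN and 0.59 in non-IPN on the log2 scale (fitted 1.01 ± 0.47, adjusted p = 0.245). Ptbp2 stood lower in each, by -0.44 and -0.34 (fitted -0.39 ± 0.24, adjusted p = 0.39). Over the same interval all 10 cycling cell markers were called lower at E16.5, and their part in the Ptbp1 values was not tested. Without the E15.5 pair 4 of 10 were called, and the calls were lost with any single library left out. Nova1 had -1.31 in IPN and 0.23 in non-IPN (fitted -0.54 ± 0.47, adjusted p = 0.557). Khdrbs1 and Khdrbs3 had fitted changes of 0.07 ± 0.22 and 0.03 ± 0.27 (adjusted p = 0.88 and 0.97), the 2 smallest of the 10. Khdrbs2 had 4.25 ± 1.35 (adjusted p = 0.106), a size that rests on the 0.

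**Figure D4:**
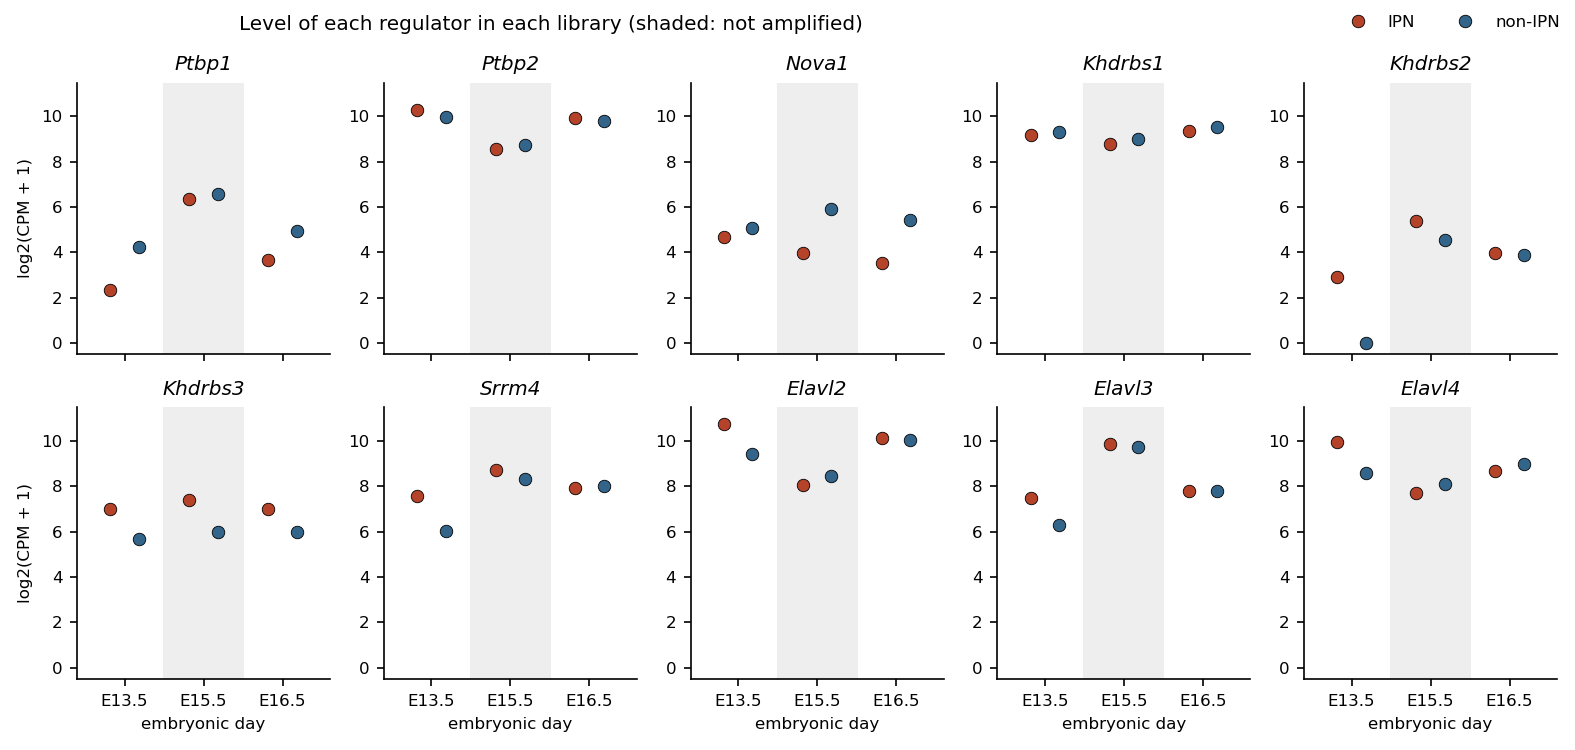
Level of each of the 10 genes in each library as log2(CPM + 1) against embryonic day, with IPN red, non-IPN blue and the E15.5 pair, which was not amplified, shaded. Khdrbs3 is higher in IPN on each day. Ptbp1, Elavl3, Khdrbs2 and Srrm4 have their highest levels in the shaded pair, while Ptbp2, Elavl2, Elavl4 and Khdrbs1 have their lowest there.

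The 10 genes differed in sign between the E15.5 pair and the amplified libraries, with 19 of the 20 values inside the 5th to 95th percentile of all genes. As log2(CPM + 1) at E15.5 minus the mean of E13.5 and E16.5, Ptbp1 was at 3.34 in IPN and 1.98 in non-IPN, and Elavl3 at 2.21 and 2.71. Elavl2 was at -2.40 in IPN and -1.28 in non-IPN, Ptbp2 at -1.54 and -1.14, and Elavl4 at -1.60 and -0.69. Khdrbs3 had 0.38 and 0.15. Over 9349 genes the median was 0.38 in each population, and the 5th and 95th percentiles were -1.77 and 3.39 in IPN and -1.84 and 3.29 in non-IPN, so that Elavl2 in IPN was the 1 of these values outside that range. Amplification, cell number and age cannot be told apart in these gaps, and no test was made.

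The order of the Hu genes followed the same split. Per kilobase, Elavl2 stood above Elavl4 and Elavl4 above Elavl3 in all 4 amplified libraries (415.1, 241.8 and 35.9 CPM per kb in IPN at E13.5, and 251.5, 123.3 and 43.8 in non-IPN at E16.5). At E15.5 Elavl3 stood first, with 184.9 CPM per kb in IPN against 62.9 for Elavl2 and 50.8 for Elavl4, and with 172.5, 83.9 and 66.8 in non-IPN. The log2 ratio of Elavl3 to Elavl2 was -3.27, 1.81 and -2.35 in IPN by age and -3.14, 1.30 and -2.26 in non-IPN. Within a day the ratios of the populations were close, while those of the E15.5 pair lay far from those of the amplified libraries. Age, cell number and amplification cannot be told apart in that gap.

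For likeness of pattern, log2(CPM + 1) profiles over the 6 libraries, each centered on its own mean, were compared by Euclidean distance among the 9349 genes. The closest to Ptbp1 were Tyro3 (distance 0.34) and Acvr2b (0.60), to Khdrbs3 Tagln3 (0.57) and Hunk (0.68), and to Nova1 Snx30 (0.52) and Sema6a (0.55). Srrm4 was closest to Pla2g4b (0.23) and Ank (0.32), Elavl2 to Araf (0.49) and Rab2a (0.57), Elavl3 to Tmem59l (0.18) and Pip4k2c (0.20), and Elavl4 to Golph3l (0.46) and Mterfd3 (0.48). Ptbp2 was closest to Rnf103 (0.13) and Ppm1d (0.16), Khdrbs1 to Tomm70a (0.06) and Bag4 (0.08), and Khdrbs2 to Jph4 (0.77) and Ncald (0.91). No member was among the 2 closest genes of another member, which was likely beforehand with 2 places among 9349 genes, so nothing is concluded from it. The profiles also hold the gap between the E15.5 pair and the amplified libraries, whose part in these distances was not tested.

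Other genes of RNA regulation were counted by list. Of 7 relatives of the members, Qk, a STAR protein related to the Khdrbs family and known from glia and progenitors, was the 1 called between populations. Over all genes tested 3.39% were called. Qk was at 82.21, 90.02 and 107.17 CPM across the 3 IPN ages, against 508.43, 528.75 and 462.19 CPM across those of non-IPN, without overlap (fitted -2.29 ± 0.22, limma, adjusted p = 0.000361). Microglia and radial glia markers were higher in the same non-IPN libraries, and their part in this difference was not tested. Rod1 (Ptbp3) was not called (-1.05 ± 0.28, adjusted p = 0.0831), nor were Nova2 (-0.42 ± 0.28, adjusted p = 0.603), Srrm3 (-0.25 ± 0.55, adjusted p = 0.872) and the ubiquitous Elavl1 (-0.16 ± 0.22, adjusted p = 0.83). The median of the 7 was -0.34.

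Of 27 other neuronal or developmental RNA-binding regulators, 2 were called higher and 1 lower in IPN, against 0.982% and 2.41% of all genes, with a median of -0.05. Rbfox1, a neuronal splicing factor, was at 79.95, 230.15 and 437.86 CPM in the IPN libraries by age, against 18.80, 69.12 and 260.26 CPM in the non-IPN libraries (1.66 ± 0.26, limma, adjusted p = 0.00653). It was higher in IPN on each day, with overlap across days. Rbm24 was also higher (2.16 ± 0.48, adjusted p = 0.0411) and Mbnl1, which opposes fetal splicing patterns, was lower (-1.15 ± 0.24, adjusted p = 0.0272). Without the E15.5 pair these 3 were no longer called (adjusted p = 0.201, 0.241 and 0.354), nor was Rbm24 without the E13.5 pair (adjusted p = 0.0643) or Mbnl1 without the E16.5 pair (adjusted p = 0.124). Rbfox2 (-0.05 ± 0.21, adjusted p = 0.945), Rbfox3 (0.88 ± 0.39, adjusted p = 0.362) and the repressor Rest, an antagonist of neuronal genes that SRRM4 is known to regulate by splicing (-2.41 ± 0.79, adjusted p = 0.171), were not called. Rest was at 0.19, 15.06 and 0.34 CPM in IPN, youngest first, and at 1.07, 30.19 and 9.14 CPM in non-IPN. For the population by day term 1 of the 27 was called, against 1.30% of all genes. This was Celf3 (-0.76 ± 0.17, limma, adjusted p = 0.0448), which is named here because it was the only one and so was chosen after its value was seen. It was not called with a pseudocount of 10 (limma, adjusted p = 0.163) or without the trend and robust options (adjusted p = 0.406), in a range of 0.00139 to 0.406 over 6 alternatives.

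Of 31 general splicing factors, 0 were called between populations (limma), with a median of -0.01. At an unadjusted p under 0.05 there were 0 of the 31, against 2665 of all 19561 genes. Between ages 5 of the 31 were called lower at E16.5 and 0 higher, against 2.26% and 3.76% of all genes, with a median of -0.40. They were Srsf7 (-1.19 ± 0.22), Hnrnpa2b1 (-1.02 ± 0.20), Srsf2 (-1.0 ± 0.24), Hnrnpm (-0.94 ± 0.24) and Srsf3 (-0.91 ± 0.22), with adjusted p of 0.0152, 0.0177, 0.0358, 0.045 and 0.0419. Hnrnpa2b1 was at 3306.28 CPM at E16.5 and 6107.68 at E13.5 in IPN, and at 3179.75 and 6010.87 in non-IPN. The cycling cell markers were also lower at E16.5 in each population, and their part in these changes was not tested.

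Several neuronal regulators stood higher at E16.5 than at E13.5. Among relatives, Nova2 (3.19 ± 0.35, limma, adjusted p = 0.00152) and Srrm2 (1.18 ± 0.24, adjusted p = 0.0188) were called, and Rod1 (-1.16 ± 0.34, adjusted p = 0.0783), Srrm3 (1.23 ± 0.67, adjusted p = 0.326) and Elavl1 (0.15 ± 0.27, adjusted p = 0.775) were not. Nova2 was at 35.57 CPM at E16.5 and 2.91 at E13.5 in IPN, and at 51.18 and 6.22 in non-IPN. Its mean over all libraries was 132.52 CPM, so its level at E15.5 stood above that at E16.5. The E13.5 values were low, and amplification and age cannot be told apart at E15.5. Of the 27 other regulators, 4 were called higher and 0 lower, against 3.76% and 2.26% of all genes, with a median of 0.60. They were Rbfox1 (3.0 ± 0.32), Cpeb4 (2.9 ± 0.51), Stau2 (1.66 ± 0.33) and Celf2 (1.32 ± 0.22), with adjusted p of 0.00151, 0.0119, 0.0181 and 0.0097. Rbfox2 (0.80 ± 0.26, adjusted p = 0.1), Rbfox3 (-0.17 ± 0.48, adjusted p = 0.866) and Rest (1.72 ± 0.96, adjusted p = 0.338) were not called. Of the 5 young neuron markers, Dcx (1.69 ± 0.31, adjusted p = 0.0142) and Mapt (1.56 ± 0.32, adjusted p = 0.0202) were also called higher at E16.5, with 1.15 and 1.05 in IPN and 2.23 and 2.07 in non-IPN, and the 10 cycling cell markers were called lower. The part of these cells in the regulators' changes was not tested.

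A list of 15 transcripts reported as targets of these proteins held 1 called higher and 1 lower in IPN, against 0.982% and 2.41% of all genes, with a median of 0.20. Gap43, a growth cone protein whose mRNA ELAVL4 stabilizes, was at 410.92, 360.58 and 312.84 CPM across the 3 IPN ages, against 97.74, 101.13 and 183.49 CPM across those of non-IPN, without overlap (1.70 ± 0.26, limma, adjusted p = 0.00476). With the E15.5 libraries left out Gap43 was not called (adjusted p = 0.163). Nrxn3, a neurexin with an exon under KHDRBS control, was at 0.84, 6.55 and 5.40 CPM in the IPN libraries by age, against 118.05, 470.38 and 447.64 CPM in the non-IPN libraries (-6.38 ± 0.30, adjusted p = 8.39e-06). The 7 GABAergic markers were also lower in all 3 IPN libraries, by sums of 17.5 to 57.6 CPM in IPN against 1072.8 to 4164.7 CPM in non-IPN, and their part in the Nrxn3 difference was not tested. Between ages 6 of the 15 were called higher at E16.5 and 0 lower, against 3.76% and 2.26% of all genes, with a median of 1.51. They included Grin1 (2.76 ± 0.60, adjusted p = 0.0264), Dlg4 (2.50 ± 0.58, adjusted p = 0.0337), Nrxn3 (2.14 ± 0.37, adjusted p = 0.011), Src (1.80 ± 0.34, adjusted p = 0.0146) and Gabbr1 (1.51 ± 0.32, adjusted p = 0.0237). Dlg4 (PSD-95), whose transcript PTBP proteins are known to destabilize by skipping an exon, was at 3.56 CPM at E16.5 and 0.90 at E13.5 in IPN, and at 5.64 and 0.50 in non-IPN. Its mean over all libraries was 89.48 CPM, so these amplified values were low and its level at E15.5 stood far above them. The age calls in all these lists were lost whenever 1 library was left out, since each such setting called 0 of all genes tested.

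**Figure D5:**
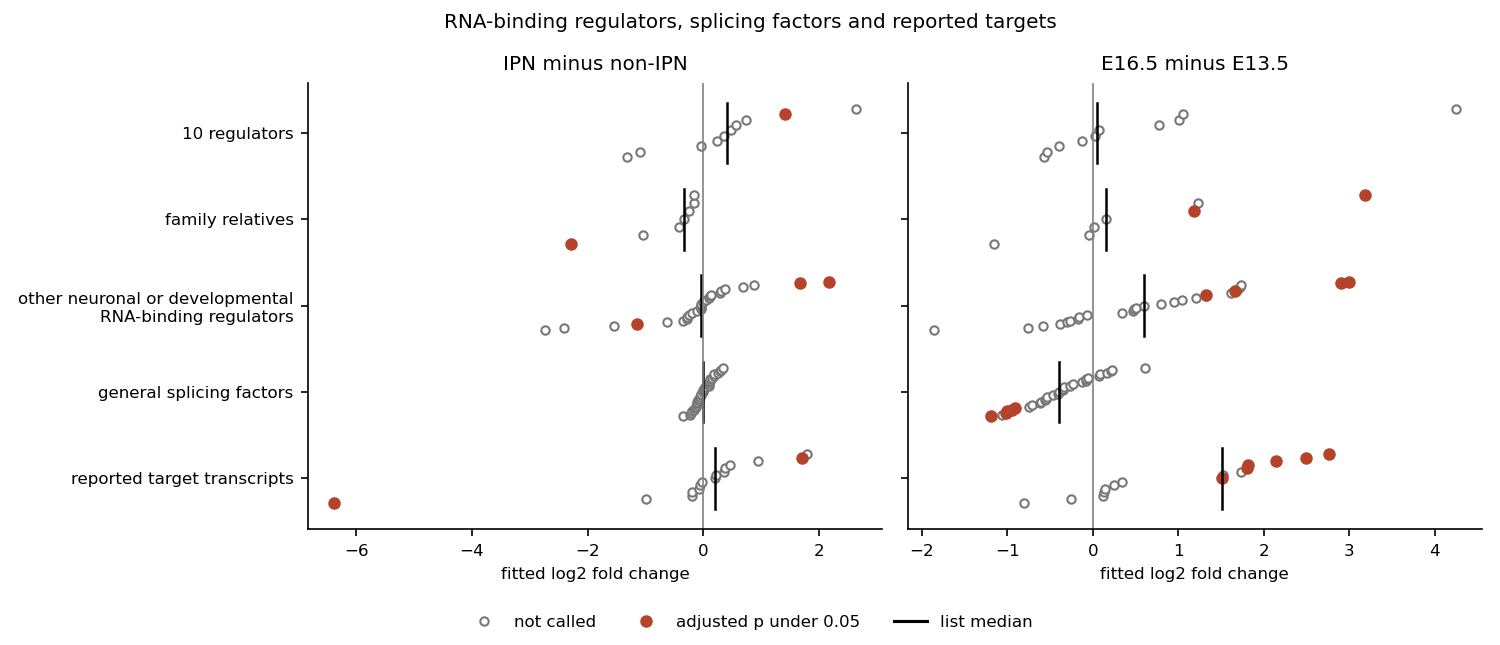
Fitted log2 fold change of every measured gene in the 10 regulators and 4 further lists, IPN minus non-IPN on the left and E16.5 minus E13.5 on the right, with filled red points for adjusted p under 0.05 and a black bar for the list median. Khdrbs3 is the 1 filled point of the 10 regulators, general splicing factors lie close to 0 between populations and have a median of -0.40 between ages.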

How the data were processed

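Sorted cortical cells of 6 libraries were profiled by RNA sequencing. Build mm9 and the tools TopHat 1.2.0, SAMtools 0.1.18, CASAVA 1.9 and edgeR are named in the submitters' processing notes; what each did, strand use and the annotation: not given in the sources used here. The deposited values are whole numbers per gene symbol and were treated as a scaled signal: upper quartiles were 438 to 444 in the 4 amplified libraries and 1502 and 1501 at E15.5, although column totals ran from 12583677 to 32538995. True depth is therefore unknown, and no counting interval was computed.

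Tables were joined by symbol, and 6 rows of 3 repeated symbols were dropped. Genes above 0 in at least 1 library (19561) were fitted on log2(value + 1), a pseudocount that understates changes of low genes. The fit was made in R 4.3.3 by limma 3.58.1, its trend and robust options on, with population and embryonic day as factors and Benjamini-Hochberg adjustment. The E16.5 minus E13.5 difference came from the same fit, and a further fit added population by day. The day paired the libraries, since both populations came from the same dissociated cortices, per the labels' protocols; deviations from population means correlated at 0.76, 0.92 and 0.61 within days (E13.5, E15.5, E16.5). Separate animals are not named, so p-values measure the spread between these libraries, which may be technical. The fit was tested on simulated data with independent noise of the spread that the same fit gave. Such data meet the assumptions of the fit, so they cannot show how amplification affects the calls.

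All 10 genes were named, and of other lists the called genes (up to 6 per list and comparison) and 8 fixed relatives. Members and lists were chosen with earlier results of these data known. Of the listed regulators and markers, 3 were not analysed here, and 1 gene of the target list is not reported here by name. Alternatives covered pseudocount, scaling, a 10 CPM minimum, limma options, the day term and libraries left out; the 1 added after seeing the data was E16.5 against E13.5 without the E15.5 pair.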

Additional observations from a re-analysis of the deposited data

Results flagged for a closer look

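The population by day term of Khdrbs2 was -2.25 ± 0.37 on the log2 scale per day (limma, adjusted p = 0.0107). No day had a replicate pair and the E15.5 pair was not amplified. The p-value therefore does not show that the IPN minus non-IPN difference changed with age beyond these libraries. The difference was large at E13.5, where the gene was at 6.66 CPM in IPN and listed at 0 in non-IPN, then 0.93 at E15.5 and 0.28 at E16.5. Over the 6 other settings tried the adjusted p ran from 9.28e-08 to 0.401, and the term was not called with a pseudocount of 10 or without limma's trend and robust options.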

How the results depend on the processing

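With 3 pairs of libraries, counts of calls moved with several settings. For IPN against non-IPN, 664 genes were called, against 334 with a pseudocount of 10, 358 among genes of at least 10 CPM, 0 without trend and robust options (1946 at an unadjusted p under 0.05), 0 without the replicate block of embryonic day (676 unadjusted), and 54 to 595 when a pair was left out. Of the 10 members 1 was called, against 0 without trend and robust options, 0 without the replicate block and 0 to 2 with a pair left out. Khdrbs3 kept a log2 fold change of 1.27 to 1.48 in all of these and was called in all but those without trend and robust options (adjusted p = 0.245), without the replicate block (adjusted p = 1) and with E15.5 left out (adjusted p = 0.184). For E16.5 against E13.5, 1178 genes were called, against 452 with a pseudocount of 10, 0 without trend and robust options (3414 unadjusted) and 0 to 97 with libraries left out, the 97 without the E15.5 pair, a setting chosen after seeing the data. For the population by day term, 255 were called, against 9 and 530 with pseudocounts of 10 and 0.5, 1445 scaled to column totals, 1558 with median-of-ratios scaling, 135 among genes of at least 10 CPM and 0 without trend and robust options (2321 unadjusted). The members called there were 1 in the fit as reported, 0 with a pseudocount of 10, 5 and 4 with the scalings and 0 without those options.

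Values not called as reported turned sign as follows, with the range over the libraries left out. For IPN against non-IPN, Elavl2 (-0.03 to 0.89), Elavl4 (-0.23 to 0.70) and Elavl1 (-0.30 to 0.06) turned without the E13.5 pair, Khdrbs1 (-0.07 to 0.01) without the E15.5 pair, and Rbfox2 (-0.24 to 0.06) without the E15.5 pair or, at 0.03, the E16.5 pair. For E16.5 against E13.5, Nova1 (-1.35 to 0.27), Elavl2 (-0.88 to 0.62), Elavl4 (-1.44 to 0.29), Elavl1 (-0.18 to 0.49) and Rbfox3 (-1.04 to 0.70) turned without IPN at E13.5, the last pair also without IPN at E16.5 (-0.06 and 0.17), and Khdrbs3 (-0.07 to 0.14) turned without either non-IPN library and, at -0.01, with median-of-ratios scaling. The population by day term of Khdrbs1 was 0.01 with median-of-ratios scaling. Scaling to column totals moved the median of all genes for IPN against non-IPN to -0.15, from -0.02 as reported. The cause of these changes was not tested.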
